A study of Homo sapiens with 2 samples.

Results

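Peaks of the RNA-binding protein IGF2BP3 next to the 3′ ends of mRNAs were taken from LACE-seq of OE-19, an established cell line that derives from a tumour of the esophagogastric junction. LACE-seq freezes contacts of RNA and protein with UV light, pulls down the protein with the RNA it holds, trims that RNA, and sequences linearly amplified cDNA ends. The labels give 2 samples, replicates 1 and 2 of a single group of cells grown in RPMI1640 with serum, with no treatment or genotype named. The study calls its LACE-seq replicates biological. The labels do not say that they came from separate cultures, so the spread between them may be partly technical. With no input or IgG library among the files used here, more RNA and more binding cannot be told apart at a strong peak.

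A 3′ end peak was one that overlapped the 3′ UTR of the canonical transcript of a protein-coding gene, overlapped none of its coding sequence, and contained its annotated 3′ end or came within 300 bp of it. Replicate 1 had 21096 peaks on annotated chromosomes, of which 552 met these conditions (2.62%, Wilson 95% interval 2.41 to 2.84), as did 378 of 20763 in replicate 2 (1.82%, interval 1.65 to 2.01). The mean over the replicates was 465 ± 123 peaks (SD, n = 2). In each list 10 of the peaks were assigned to the ends of 2 genes, so 562 and 387 genes had such a peak. This is 2.92% and 2.01% of the 19229 protein-coding genes with a canonical 3′ UTR. Peaks lay on epithelial marker genes, with 7 and 8 peaks on CDH1, 10 and 10 on ERBB2 and 4 and 5 on KRT8, whereas PTPRC, CD3E, COL1A2, PECAM1 and HBB had 0 peaks in both lists and COL1A1 had 0 and 1.

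The 3′ end of an mRNA is made when the cleavage and polyadenylation machinery recognises a hexamer, most often AATAAA or ATTAAA in DNA letters, cuts the transcript a short way downstream and adds the poly(A) tail. The IGF2BP family, which binds through KH domains, is known for stabilising target mRNAs, and the study describes IGF2BP3 as a reader of N6-methyladenosine (m6A), a mark that in mRNA is densest around stop codons and in 3′ UTRs and commonly sits in a GGAC core. The lines that follow hold the last 30 bases of transcripts whose ends had a peak in both replicates, read from hg38 on the gene strand, with the hexamer in capitals. They are shown because the hexamer marks the end against which the peaks are placed.
YTHDF1, chr20:63195429-63195458, minus strand: aagccttAATAAAcaatactatttagcaaa
MLF2, chr12:6747996-6748025, minus strand: tttatggAATAAAggagaatggaaaaaaga
CCND1, chr11:69654445-69654474, plus strand: aagtctagaAATAAAactggtaaaacccca
TAPBP, chr6:33299694-33299723, minus strand: ggAATAAAgctgtattccagtgcttccaaa
MUC13, chr3:124905442-124905471, minus strand: aatgcAATAAAgtgcctttgttagatggtg
PPP2R5D, chr6:43012313-43012342, plus strand: acagaactgAATAAAgtgggtctctgagaa
VAV3, chr1:107571161-107571190, minus strand: tgtcaatatAATAAAtagtgactaaattga
The first 5 ends had peaks that stopped short of these bases in both replicates. The last 2 had peaks that covered them, except that the PPP2R5D peak of replicate 2 began inside the printed stretch, at 43012327.

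Most of the peaks did not reach the end they were assigned to. Only 48 of 552 in replicate 1 (8.70%, interval 6.62 to 11.3) and 36 of 378 in replicate 2 (9.52%, interval 6.96 to 12.9) contained the annotated 3′ end, a mean of 9.11% ± 0.586 (SD, n = 2). The others stopped short of it, by a median of 193.5 bp in replicate 1 and 207.5 bp in replicate 2, and the closest stopped 9 and 26 bp away. In replicate 1, 71 peaks stopped up to 100 bp short, 192 stopped over 100 and up to 200 bp short, and 241 stopped over 200 bp short. The same counts in replicate 2 were 34, 126 and 182. By the deposited coordinates these were mostly peaks of the distal 3′ UTR. The direction of the reads, and whether they were extended before peaks were called, are not given in the sources used here, so peak positions may be offset from the RNA that was bound. Every gap, summit position and density below is that of the deposited coordinates. The 3′ UTR held the summit of 515 of the 552 (93.3%) and of 353 of the 378 (93.4%), while it lay past the end for 31 and 22 and in an intron of the transcript for 6 and 3. Its median position was 394 bp before the end in replicate 1 and 404 bp before it in replicate 2.

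The number of peaks fell over the last 200 bp of the 3′ UTR. Among 7420 unspliced canonical 3′ UTRs of at least 1500 nt, peaks were counted by how far short of the end they stopped, in bins of 100 bp. Beyond 300 bp and out to 1200 bp, a bin held 73 to 117 peaks in replicate 1 and 70 to 92 in replicate 2. The bin from 200 to 300 bp held 122 and 78, close to these levels. The bin from 100 to 200 bp held 68 (exact Poisson interval 52.8 to 86.2) and 37 (26.1 to 51.0), and the last 100 bp held 24 (15.4 to 35.7) and 7 (2.81 to 14.4). The limit of 300 bp thus lay in the level stretch, where the profile itself had no step. Peaks in the 20 bp just inside it numbered 52 and 45 with a median fold enrichment of 5.53 and 6.65, and those in the 20 bp just outside numbered 39 and 39 with 5.46 and 5.49. Just inside, 57.7% and 84.4% overlapped a peak of the other replicate, against 61.5% and 64.1% just outside. The direction of this difference was not the same in the 2 lists, and it was not tested.

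**Figure D1:**
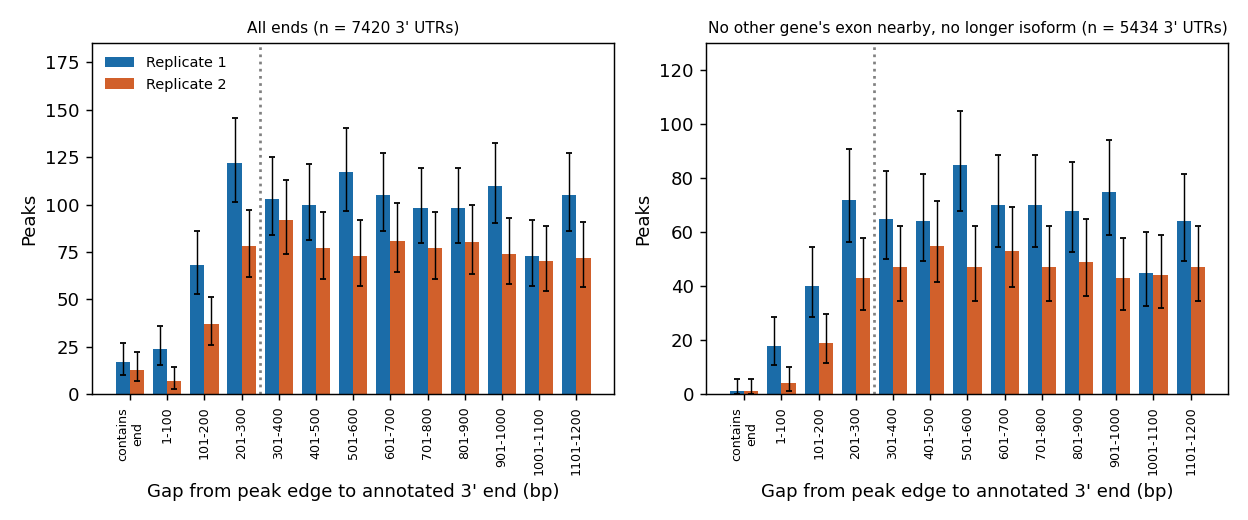
Number of peaks (y axis) by the gap in bp from the nearest peak edge to the annotated 3′ end (x axis, bins of 100 bp) in unspliced canonical 3′ UTRs of at least 1500 nt, for all ends (left) and for ends with no exon of another gene within 300 bp and no longer isoform (right). Bars are counts in each replicate, error bars exact Poisson 95% intervals, and the dotted line marks the limit of 300 bp; counts were level beyond 200 bp and fell to 24 and 7 peaks in the last 100 bp on the left.

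Summits were also counted per kb of sequence. In 2927 genes of replicate 1 with a 3′ UTR of at least 1000 nt and a summit in it, the last 300 nt held 40 summits, or 0.0456 per kb (interval 0.0325 to 0.0620), against 0.480 per kb (0.465 to 0.495) in the rest. In 2392 genes of replicate 2, 26 summits gave 0.0362 per kb (0.0237 to 0.0531) against 0.463 (0.447 to 0.479). The ratio of the last 300 nt to the rest was 0.0949 and 0.0783, a mean of 0.0866 ± 0.0117 (SD, n = 2). Position within a peak bears on this ratio. The narrowest peaks of the lists were 293 and 294 bp wide, and with every summit moved downstream by 146 and 147 bp, or 0.5 of that width, the ratio was 0.582 and 0.406.

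**Figure D2:**
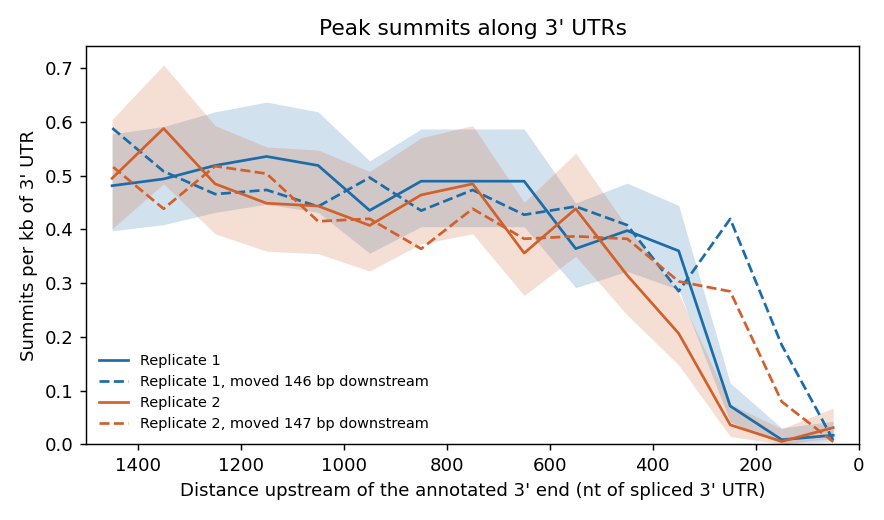
Summits per kb of canonical 3′ UTR (y axis) by distance in nt upstream of the annotated 3′ end (x axis, bins of 100 nt, end at the right) for genes with a 3′ UTR of at least 1500 nt. Solid lines are the deposited summits with exact Poisson 95% intervals as bands, and dashed lines the summits moved downstream by 146 or 147 bp; the solid lines dropped over the last 400 nt, and the dashed lines fell closer to the end.

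Peaks that did contain the annotated end mostly lay where another gene was annotated. Another gene had an exon within 300 bp of the end at 40 of the 48 such peaks in replicate 1 (83.3%, interval 70.4 to 91.3) and 28 of the 36 in replicate 2 (77.8%, interval 61.9 to 88.3). For peaks that stopped short, the same shares were 17.3% (87 of 504, interval 14.2 to 20.8) and 20.8% (71 of 342, interval 16.8 to 25.4). The other gene was on the opposite strand at 35 of 48 and 25 of 36. Because the peaks carry no strand, the gene that gave the signal at such an end was not determined.

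EME1, which encodes a partner of the MUS81 endonuclease, is an example. Its peaks, chr17:50381338-50383402 and chr17:50381333-50383460, ran 1919 and 1977 bp past its end at 50381483, into exons of LRRC59 on the opposite strand, with a fold enrichment of 6.02 and 6.87. At PPP2R5D, a regulatory subunit of protein phosphatase 2A, the peaks ran 446 and 428 bp past the end into MEA1 with a fold of 10.1 and 9.28. At NUDT17, a nudix hydrolase, they ran 964 and 475 bp past it with a fold of 5.03 and 4.18, and the other gene there was PIAS3. The peaks at PHC1, a Polycomb group protein, ran 603 and 54 bp past its end towards M6PR, and the sequence at their summits occurs 2 times in the genome. In each of these the other gene lies on the opposite strand.

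Ends with no exon of another gene within 300 bp and no longer annotated isoform were counted alone. They held 302 and 191 of the 3′ end peaks, and 5 of these in replicate 1 (1.66%, interval 0.709 to 3.82) and 4 in replicate 2 (2.09%, interval 0.817 to 5.26) contained the end. HES7, a bHLH repressor of the segmentation clock, and VAV3 were there in both lists. The HES7 peaks reached 285 and 284 bp past the end with a fold of 9.46 and 13.1, and the VAV3 peaks reached 613 and 563 bp past it with a fold of 8.11 and 11.9. CHIC2, CNPY3 and WDR4 were there in replicate 1 alone, and AKR7A3 and CEACAM8 in replicate 2 alone. These genes were chosen after their values were seen. With ends near another gene left out, but longer isoforms kept, the share of peaks that contain the end fell from 9.11% to 2.37%, and with the ends of all protein-coding transcripts of a gene in place of the canonical one it was 45.5%.

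The second question was how often a 3′ end peak recurred. Of the 552 peaks in replicate 1, 345 shared 1 bp or more with a peak of replicate 2 (62.5%, interval 58.4 to 66.4), and of the 378 in replicate 2, 292 overlapped one of replicate 1 (77.2%, interval 72.8 to 81.2). Over all peaks the shares were 60.1% and 61.2%. The mean over the replicates was 69.9% ± 10.4 (SD, n = 2). In replicate 1 the overlapping peak was itself a 3′ end peak for 206, a 3′ UTR body peak for 72, a stop codon peak for 64 and another peak for 3. In replicate 2 these counts were 208, 32, 51 and 1.

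3′ UTR peaks farther from the end, called body peaks here, recurred less often. Their shares were 51.3% of 2801 in replicate 1 and 71.2% of 2190 in replicate 2, so 3′ end peaks were higher by 11.2 points (interval 6.72 to 15.6, two-sided exact test of Fisher, adjusted p = 2.95e-06) and 6.02 points (interval 1.38 to 10.6, adjusted p = 0.0206). Peaks that covered a stop codon recurred more often, in 76.5% of 2682 and 81.6% of 2446, so 3′ end peaks differed from these by -14.0 points (interval -18.3 to -9.63, two-sided exact test of Fisher, adjusted p = 1.62e-10) and -4.35 points (interval -8.85 to 0.143, adjusted p = 0.0484). The interval in replicate 2 includes 0. Each p was adjusted over the 4 tests by the Benjamini-Hochberg method, and the tests take each peak as independent, so they speak of these 2 libraries alone. When peaks were compared within quartiles of their read pileup, the difference from body peaks averaged 4.44 points and was no longer called, with a largest adjusted p of 0.0694 over both lists by the Cochran-Mantel-Haenszel test. The call was also lost under 5 of the other alternatives. The call against stop codon peaks was lost under 7 of 12, at -9.38 points with a largest adjusted p of 0.0694 within pileup quartiles. The median pileup at the summit was 35 and 33 reads for 3′ end peaks and 31 and 29 for body peaks. It was 35 and 36 for stop codon peaks and 22 in both lists for all peaks. Median widths were 457.5 and 437.5 bp for 3′ end peaks and 373 and 364 bp for body peaks. For stop codon peaks they were 535 and 525 bp. A wider peak can share 1 bp more easily, and the part of width in these differences was not tested.

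**Figure D3:**
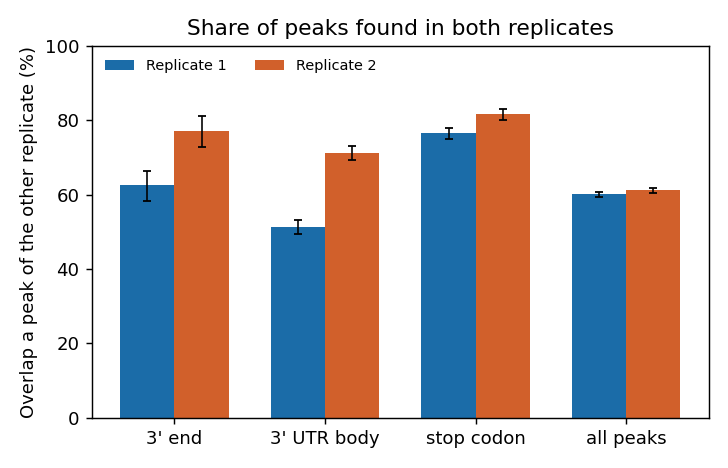
Percent of peaks that overlap a peak of the other replicate (y axis) for 3′ end peaks, 3′ UTR body peaks, stop codon peaks and all peaks (x axis). Bars are the 2 replicates and error bars Wilson 95% intervals; in both replicates 3′ end peaks (62.5% and 77.2%) lay between body peaks and stop codon peaks.

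By gene, 211 had a 3′ end peak in both replicates, which is 37.5% of the 562 genes of replicate 1 and 54.5% of the 387 of replicate 2. Of 351 genes found only in replicate 1, 291 (82.9%) had another exonic peak in replicate 2, and of 176 found only in replicate 2, 134 (76.1%) had one in replicate 1. Over all genes with an exonic peak these shares were 84.9% and 81.2%, and the differences were not tested. Within a replicate, 31.7% and 34.9% of the genes with a 3′ end peak also had a stop codon peak, and 24.6% and 17.6% also had a body peak. Over all genes with an exonic peak the shares were 37.4% and 32.4% for stop codon peaks and 29.7% and 23.2% for body peaks, and the differences were not tested.

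In 206 genes a 3′ end peak of one list overlapped a 3′ end peak of the same gene in the other. Their summits lay a median of 38 bp apart, and 113 of 206 (54.9%) lay within 50 bp. Of these pairs, 19 contained the end in both replicates, 15 of them with an exon of another gene nearby. Across these genes, which are not independent replicates, the fold enrichments of the 2 lists had a Spearman correlation of 0.636.

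**Figure D4:**
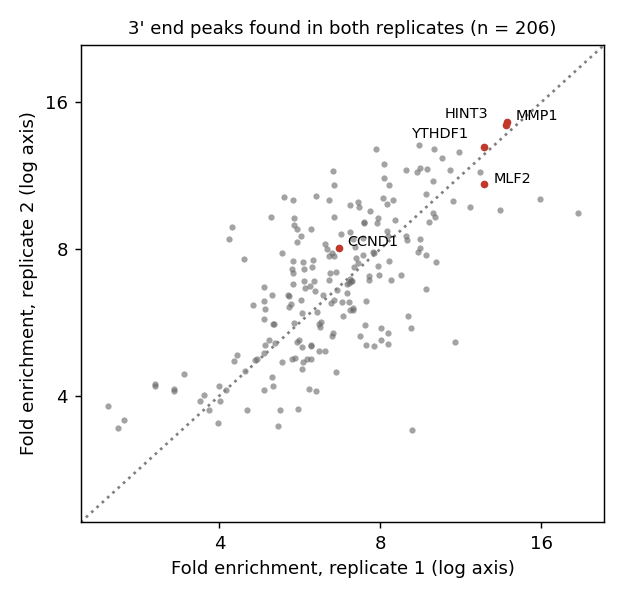
Fold enrichment in replicate 2 (y axis, log scale) against replicate 1 (x axis, log scale) for the 206 genes whose 3′ end peaks overlap between the replicates, each point 1 gene, with the dotted line at equality and 5 genes named in the text in red. The points run along the line from low to high fold (Spearman correlation 0.636).

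The fold enrichment at the summit over local background, as the authors' caller gave it, was moderate. Its median was 6.07 in replicate 1 (quartiles 5.02 and 7.51) and 6.57 in replicate 2 (5.11 and 8.18), a mean of 6.32 ± 0.354 (SD, n = 2). All peaks had medians of 6.89 and 7.13, and body peaks 5.28 and 5.67. The 3′ end peaks were wider than peaks in general, with medians of 457.5 and 437.5 bp against 336 and 342 bp. This width was not particular to them, as stop codon peaks had medians of 535 and 525 bp. Body peaks had 373 and 364 bp. Peaks that contained the end had median folds of 6.07 and 6.19, and those short of it 6.08 and 6.61.

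Genes with high values in both lists were taken as the 10 with the largest fold enrichment and the 10 with the largest −log10 q-value, by the lower of the ranks in the 2 lists. MMP1, an interstitial collagenase, led by fold with 13.8 in replicate 1 and 14.6 in replicate 2 (mean 14.2 ± 0.568, SD, n = 2). Its peaks, chr11:102790021-102790397 and chr11:102790024-102790395, stopped 102 and 105 bp short of the end, so the positions of the replicates differed by a few bp only. YTHDF1, a cytoplasmic m6A reader, had a fold of 12.5 and 12.9 (12.7 ± 0.296, SD, n = 2). Its peaks, chr20:63195511-63196375 and chr20:63195587-63196370, had summits 309 and 317 bp before the end, on 97 and 69 reads. HINT3, a histidine triad hydrolase, had a fold of 13.7 and 14.4, but the sequence at its summits occurs 31 and 35 times in the genome, so the origin of its reads is uncertain. The same holds for FKBP1A, the FK506-binding protein, whose fold was 10.8 and 11.6 and whose summit sequence occurs 2 times.

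Among the others in the leading group by fold, HSD17B11, a hydroxysteroid dehydrogenase of lipid droplets, had a fold of 11.2 and 12.6. YIPF1, a Golgi membrane protein, had 12.3 and 11.5. RLIM, a ubiquitin ligase, had 10.4 and 12.3 in a 3′ UTR of 8464 nt, and neither hexamer was in the last 50 nt of its transcript. The pseudogene PABPC1P3 is annotated within 300 bp of the RLIM end on the same strand. AHCYL1, a partner of the inositol trisphosphate receptor, had 10.0 and 11.1. B3GNT4, a glycosyltransferase, had 10.1 and 12.9, with exons of DIABLO on the opposite strand near its end.

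By −log10 q, which rises with read number as well as fold, MLF2 led. Its values were 97.3 and 67.6 on 137 and 103 reads, with a fold of 12.5 and 10.9, and its peaks, chr12:6748090-6748681 and chr12:6748123-6748636, stopped 94 and 127 bp short of the end. CCND1, which encodes the G1 cyclin D1, had 62.3 and 76.1 on 138 and 145 reads, with a fold of 6.68 and 8.05. Its peaks, chr11:69653375-69654336 and chr11:69653804-69654337, had downstream edges 138 and 137 bp short of the end but upstream edges farther apart. LTO1 on the opposite strand has an exon near that end. Among the others, MUC13, a transmembrane mucin, had 58.7 and 86.3, CEACAM6, a glycoprotein of epithelial surfaces, had 63.4 and 51.6, TAPBP, which loads peptides on MHC class I, had 83.0 and 66.8, and SURF4, a cargo receptor of the endoplasmic reticulum, had 49.6 and 77.5.

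The length of the 3′ UTR ranged widely among these genes. Its median was 1405.5 nt in replicate 1 and 1302 nt in replicate 2, against 1064 nt over all canonical 3′ UTRs. The longer medians are partly set by the rule, which keeps only peaks clear of coding sequence and so disfavours short 3′ UTRs. The 5th percentiles were 495.75 and 481.8 nt against 93 nt over all canonical 3′ UTRs. The latter also include genes without a peak. The longest with a pair of peaks was that of CNNM2, linked to magnesium transport, at 13042 nt. There the peaks stopped 139 and 105 bp short of the end with a fold of 7.78 and 5.06. The shortest was that of CASP4, an inflammatory caspase, at 113 nt. Its peaks stopped 60 and 83 bp short with a fold of 7.27 and 10.0, and their summits, 262 and 285 bp before the end, lay in the intron that splits this 3′ UTR. DAD1, a subunit of the oligosaccharyltransferase, had a 3′ UTR of 275 nt and a fold of 15.9 and 10.1.

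Most of the ends carried a poly(A) hexamer. In the last 50 nt, AATAAA or ATTAAA was present at 87.3% of the 552 ends in replicate 1 (interval 84.3 to 89.8) and 85.7% of 377 in replicate 2 (interval 81.8 to 88.9), a mean of 86.5% ± 1.16 (SD, n = 2). Over all 19229 canonical ends the share was 80.0% (79.5 to 80.6). Genes with a body peak and no 3′ end peak were at 85.1% of 2025 and 84.9% of 1698, within the intervals of the ends with a peak. AATAAA alone was at 75.2% and 73.5% of the ends with a peak, at 67.9% and 68.6% of those of body peak genes, and at 65.7% of all. Ends that lay inside a peak differed from these, with either hexamer at 35 of 48 (72.9%, interval 59.0 to 83.4) and 23 of 36 (63.9%, interval 47.6 to 77.5), against 88.7% and 88.0% of the ends with a peak short of them. These shares were not tested.

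Around the summits, windows with 50 nt on either side, on the gene strand, were searched for TGGAC, for its core GGAC, which every TGGAC also holds, and for CACA, a form of the CA-rich sequences that IGF2BP proteins are known to bind. TGGAC is UGGAC in DNA letters, the consensus that the study found in its own RIP-seq and LACE-seq targets. The shares of TGGAC and GGAC, here and over whole peaks, are thus no independent support for that motif. TGGAC was in 7.25% of 552 windows in replicate 1 (interval 5.37 to 9.72) and 9.79% of 378 in replicate 2 (7.19 to 13.2). Windows of the same length centred 398 nt before the end of 13800 canonical 3′ UTRs held it in 7.33%, which lies in both intervals. With the windows moved downstream by 146 and 147 nt, the shift used for the density, TGGAC was in 10.5% (8.22 to 13.3) and 10.3% (7.64 to 13.8), against 8.17% and 8.13% of canonical 3′ UTR windows centred 252 and 251 nt before the end. The share of all 3′ UTRs at the matching distance lay just below the interval in replicate 1 and inside it in replicate 2. At the deposited summits, stop codon peaks held it in 14.0% and 13.6%, and body peaks in 8.82% and 8.81%. GGAC was in 26.1% and 31.2% of the 3′ end peak windows against 22.0% of the 13800. CACA was in 40.6% and 42.1% against 34.1%. The hexamer AATAAA was rarer at the summits than in the 13800 windows, at 3.80% and 3.70% against 7.72%, and so was TTTTT, at 20.7% and 14.8% against 27.2%. Body peaks had GGAC in 25.2% and 28.1%, CACA in 45.1% and 42.3%, AATAAA in 3.64% and 3.06%, and TTTTT in 24.4% and 17.8%. Stop codon peaks had GGAC in 35.0% and 38.2%, CACA in 41.5% and 40.4%, AATAAA in 3.06% and 1.92%, and TTTTT in 15.1% and 9.44%. Both classes thus differed from the 13800 windows in the same directions as 3′ end peaks. The 3′ end peak windows were 51.8% and 47.6% A or T against 56.8%, and the part of this base composition in the motif shares was not tested.

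Over whole peaks, TGGAC was present in the stretch shared by both replicates in 79 of 206 genes (38.3%, interval 32.0 to 45.1), where the shared stretch had a median length of 444 bp. In windows of 444 nt that stopped 206 nt short of the end of 11616 unspliced 3′ UTRs, it was present in 27.4% (26.6 to 28.2). The shared stretches vary in length, whereas these windows have a fixed length and place. The 11616 also include genes without a peak and were not matched for base composition. The difference was not tested. The next lines show it, in capitals, in 30 bases of 4 such stretches from hg38 on the gene strand.
DAD1, chr14:22565071-22565100, minus strand: atggcagcttatTGGACacatggattttct
CNNM2, chr10:103090004-103090033, plus strand: ttacatctataaTGGACcacaggacaagtc
MUC13, chr3:124906048-124906077, minus strand: aattagaaggccTGGACtaaaaatgtccac
CEACAM6, chr19:41771311-41771340, plus strand: ccttttcagagtTGGACttctagactcacc
They lie 164, 189, 606 and 871 bp before their ends. A match is a description of the letters and not a binding site.

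Gene groups were counted at 3′ ends without a test between them. Among all genes with an exonic peak, 7.70% in replicate 1 and 5.07% in replicate 2 had a 3′ end peak, and the groups are read against these. Cytosolic ribosomal protein genes had a 3′ end peak in 0 of the 64 and 0 of the 65 with any exonic peak. The median 3′ UTR of that group is 177 nt, shorter than the narrowest peaks of the lists at 293 and 294 bp. A peak there has to run out of the 3′ UTR, and the rule drops it where it reaches coding sequence. The low counts of this group are thus partly set by the rule. Replication-dependent histone genes, whose mRNAs end in a stem-loop instead of a poly(A) tail, had 0 of 45 and 1 of 29, the gene being H2BC21. Their 3′ UTRs have a median of 57 nt, so the same limit applies to the histone counts. Epithelial keratin and junction genes had 0 of 19 and 0 of 18, with a median 3′ UTR of 968.5 nt. In each list 12 of them had a stop codon peak, where the shares over all genes with an exonic peak were 37.4% and 32.4%. Glycolytic enzymes had 0 of 15 in both, with a stop codon peak in 10 and 9. The IGF2BP family with let-7 targets had 0 of 10 and 0 of 9, with a median 3′ UTR of 3747.5 nt. With so few genes in the keratin and junction, glycolytic and IGF2BP groups, 0 is not far from the 7.70% and 5.07% over all genes.

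Other groups had at most 2 genes with a 3′ end peak per list. Respiratory chain genes had 1 of 45 and 2 of 40, with NDUFA6, a complex I subunit, in both lists at a fold of 5.90 and 6.73. The median 3′ UTR of this group is 189 nt, so the limit given for ribosomal protein genes applies to its counts too. Poly(A)-binding and deadenylation factors had 1 of 18 (5.56%) and 2 of 15 (13.3%). PABPC1, the main cytoplasmic poly(A)-binding protein, was in both with a low fold of 3.69 and 3.90, and its summit sequence in replicate 1 occurs 2 times in the genome. Translation factors had 2 of 53 (3.77%) and 2 of 51 (3.92%), and the one in both lists, EEF2KMT, is a methyltransferase that acts on EEF2 and no factor itself. Its summit sequence occurs 7 and 6 times. The others were EIF3B and EIF2AK2, and EIF2AK2 is a kinase and no factor either, so these shares overstate the factors. mRNA 3′ end processing factors had 1 of 16 (6.25%) and 0 of 17, the gene being PAPOLA, the nuclear poly(A) polymerase, and hnRNP and SR proteins 1 of 26 (3.85%) and 0 of 30, the gene being SRSF2. In the m6A machinery, YTHDF1 was the single gene, 1 of 13 in both lists (7.69%). In groups of this size 1 gene moves the share by several points.

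None of the 8 G1-S genes the study followed had a 3′ end peak. Over all genes with an exonic peak the shares were 7.70% and 5.07%, so 0 among so few genes is near these shares. CCND1, listed with them here, had one in both replicates among 5 and 6 exonic peaks. CDC25A, the CDK-activating phosphatase, had 1 exonic peak in each replicate and none at its 3′ end. The study reports IGF2BP3 binding in the CDC25A 3′ UTR from its RIP-seq and LACE-seq data, and from RIP-qPCR and RNA pulldown. Which part of CDC25A the exonic peaks counted here cover is not reported here. A count at the 3′ end covers only the last part of that 3′ UTR and does not bear on binding elsewhere in it. MYC, also listed here, had 3 and 3 exonic peaks, none at the end. CDC6 and E2F3 had no exonic peak in either list. For CCNE2, CDK4, CHEK2, E2F1 and WEE1, peaks numbered 1 or 2 in replicate 1 and 0 or 1 in replicate 2, none at the end.

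Repeated sequence touched a minority of these peaks. The 31 bases at the summit occurred more than once in the genome for 41 of the 552 in replicate 1 (7.43%) and for 21 of the 378 in the other list (5.56%), against 3.96% and 5.30% of body peaks. The share of 3′ end peaks that recurred was 69.8% with these left out.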

How the data were processed

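In the study's methods, OE-19 cells were UV-crosslinked, IGF2BP3 was pulled down, and RNA was cut with MNase. Reads left after removal of pre-rRNA were aligned to hg38 with Bowtie, and Piranha called peaks. The submitters' processing notes name fastp, HISAT2 and MACS2 instead, and the deposited lists have the MACS narrowPeak layout. Peaks were called per replicate and carry no strand. The deposited fold is a ratio over local background, and the deposited p-values and q-values are on the −log10 scale. The deposited score column was not used. Total reads are unknown. The pileup at each summit was recovered from the authors' fold and p-value under a Poisson distribution (smallest pileup 4 reads).

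Peaks on scaffolds outside GENCODE 44 (46 and 36) were left out. Body peaks overlap the same 3′ UTRs without coding sequence, more than 300 bp from the end, and stop codon peaks cover the codon. Shares have Wilson and counts exact Poisson 95% intervals, for counting error only. Overlap shares were compared by Fisher's exact test with Benjamini-Hochberg adjustment, called below 0.05 in both lists (scipy 1.17.1, statsmodels 0.14.6). The classes and tests were tested on simulated peaks. The named genes also include members of gene groups with peaks in both lists and extremes of 3′ UTR length and reach. The members, gene lists and rules were chosen with earlier results of these data known. Alternatives changed the distance, transcripts, filters, overlap rule and replicates.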

Additional observations from a re-analysis of the deposited data

How the results depend on the processing

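The mean number of 3′ end peaks per replicate, 465, became 94.5 within 100 bp of the end, 784 within 500 bp, 42 for peaks that contain the end and 905.5 with any protein-coding transcript, and the 211 genes found in both lists became 31, 393, 19 and 404. It stayed within 1.5 times under the other 4 alternatives, and so did the shared genes under the other 5. The share that recurred, 69.9%, fell to 53.4% with reciprocal overlap of 0.5 and to 33.0% with summits within 50 bp, and otherwise moved by less than the SD between replicates. The difference from body peaks, 8.59 points as a mean over the replicates, kept the direction of that mean under all 12 alternatives. It lost its call under 6, at 5.22 points within 100 bp, 8.48 for peaks that contain the end, 8.17 with −log10 q of at least 5, 9.65 with at least 15 reads, 5.47 with summits within 50 bp and 4.44 within pileup quartiles. The replicates went opposite ways for peaks that contain the end. Those recurred in 72.9% of replicate 1 and 66.7% of replicate 2, against 51.3% and 71.2% of body peaks. The difference from stop codon peaks, -9.16 points as a mean, kept the direction of that mean in alternatives chosen after the data were seen. It lost its call at -9.29 for peaks that contain the end, -9.46 without ends near another gene, -7.73 with at least 15 reads, -9.27 with the summit in the 3′ UTR, -7.24 with summits within 50 bp, -9.16 with summit sequences that occur once and -9.38 within pileup quartiles. The density ratio, 0.0866, was 0.0544 without ends near another gene, 0.0536 and 0.105 for 3′ UTRs of at least 2000 and 600 nt, 0.0988 without the first 300 nt after the stop codon and 0.494 with summits moved downstream. The share that contains the end, 9.11%, was 45.9% within 100 bp, 5.35% within 500 bp, 45.5% with any transcript, 2.37% without ends near another gene and 3.62% with the summit in the 3′ UTR, and the alternative that keeps only such peaks gives no value. The share of ends with a hexamer, 86.5%, was 68.4% for peaks that contain the end, 89.9% without ends near another gene and 84.7% in the last 40 nt. The median fold, 6.32, moved by less than the SD between replicates under 8 alternatives, and the median −log10 q in its place was 14.98. Taken alone, replicate 2 and replicate 1 gave 378 and 552 peaks, shares that recurred of 77.2% and 62.5%, differences of 6.02 and 11.2 points from body peaks and -4.35 and -14.0 from stop codon peaks, and no call was lost. No paired analysis was possible because there is a single group. The cause of each lost call was not tested. Weak peaks, down to 4 reads, and the lack of a control library limit all of these values.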
